A study of Mus musculus with 8 samples.

Results

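The genes described here are 9 named genes of hypothalamic tanycytes and of thyroid hormone handling: Rax, Lhx2, Gpr50, Crym, Nes, Vim, Dio2, Thra and Thrb. They were chosen by gene name out of 55401 genes in the table, and each matched 1 entry. The rule uses names only, although the names were picked with earlier results of these data known. The samples were 8 hypothalami of mouse pups at postnatal day 19, measured by RNA sequencing after removal of ribosomal RNA. In 4 pups PLX3397, an inhibitor of the receptor CSF1R that microglia need to survive, was given by gavage on postnatal days 9 to 15. The other 4 pups received vehicle on the same days, and each group held 2 females and 2 males. Sampling followed the last gavage day by 4 days in both groups, and the labels give no allele or transgene for either. The sources used here do not give strain, dose or litter, and the sample source field reads brain where the design text says hypothalamus. The design text counts 8 hypothalami, so the libraries were taken as separate animals. The study asked what microglia contribute to the hypothalamus as it matures after birth.

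Tanycytes are radial-glia-like cells that line the floor and lower walls of the third ventricle and send long processes into the hypothalamus. They are a main site in the hypothalamus of type 2 deiodinase, the enzyme that turns the prohormone T4 into the active hormone T3. Thyroid hormones enter brain cells through membrane transporters such as OATP1C1, are inactivated by type 3 deiodinase, and act through the nuclear receptors TRα and TRβ, which bind DNA mostly as partners of retinoid X receptors.

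None of the 9 genes passed the test between PLX3397 and vehicle hypothalami. All 9 passed the filter on low values and were among 16894 genes tested, and 0 of them were called by edgeR's quasi-likelihood test at an adjusted p threshold of 0.05, where 2.14% of all tested genes were called (362 genes, of which 52, or 0.308%, were higher and 310, or 1.83%, lower in PLX3397). At an unadjusted p under 0.05, edgeR gave 0 of the 9, DESeq2 gave 1 and limma gave 1, where the shares of all tested genes were 16.2%, 17.1% and 15.7%. After adjustment DESeq2 called 6.49% and limma 2.18% of all tested genes, and neither called any of the 9. Their log2 fold changes of PLX3397 over vehicle were positive in 6 and negative in 3, with a median of 0.15, against a median of -0.00 over all tested genes. For each of the 9 genes the range of the PLX3397 libraries overlapped that of the vehicle libraries, whereas the groups did not overlap for 1900 tested genes (11.2%). Summed over the 9 genes, the level was 771 to 805 CPM (counts scaled to a common library size) in PLX3397 libraries and 757 to 791 CPM in vehicle libraries. Thra made up 77.9% to 81.4% of that sum in PLX3397 and 81.3% to 83.5% in vehicle. The other 8 genes, of which Vim is the most abundant, summed to 146 to 178 CPM in PLX3397 and 129 to 145 CPM in vehicle, a sum looked at after the values were seen and not tested. In whole tissue, fewer cells of a type and less RNA per cell cannot be told apart.

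**Figure D1:**
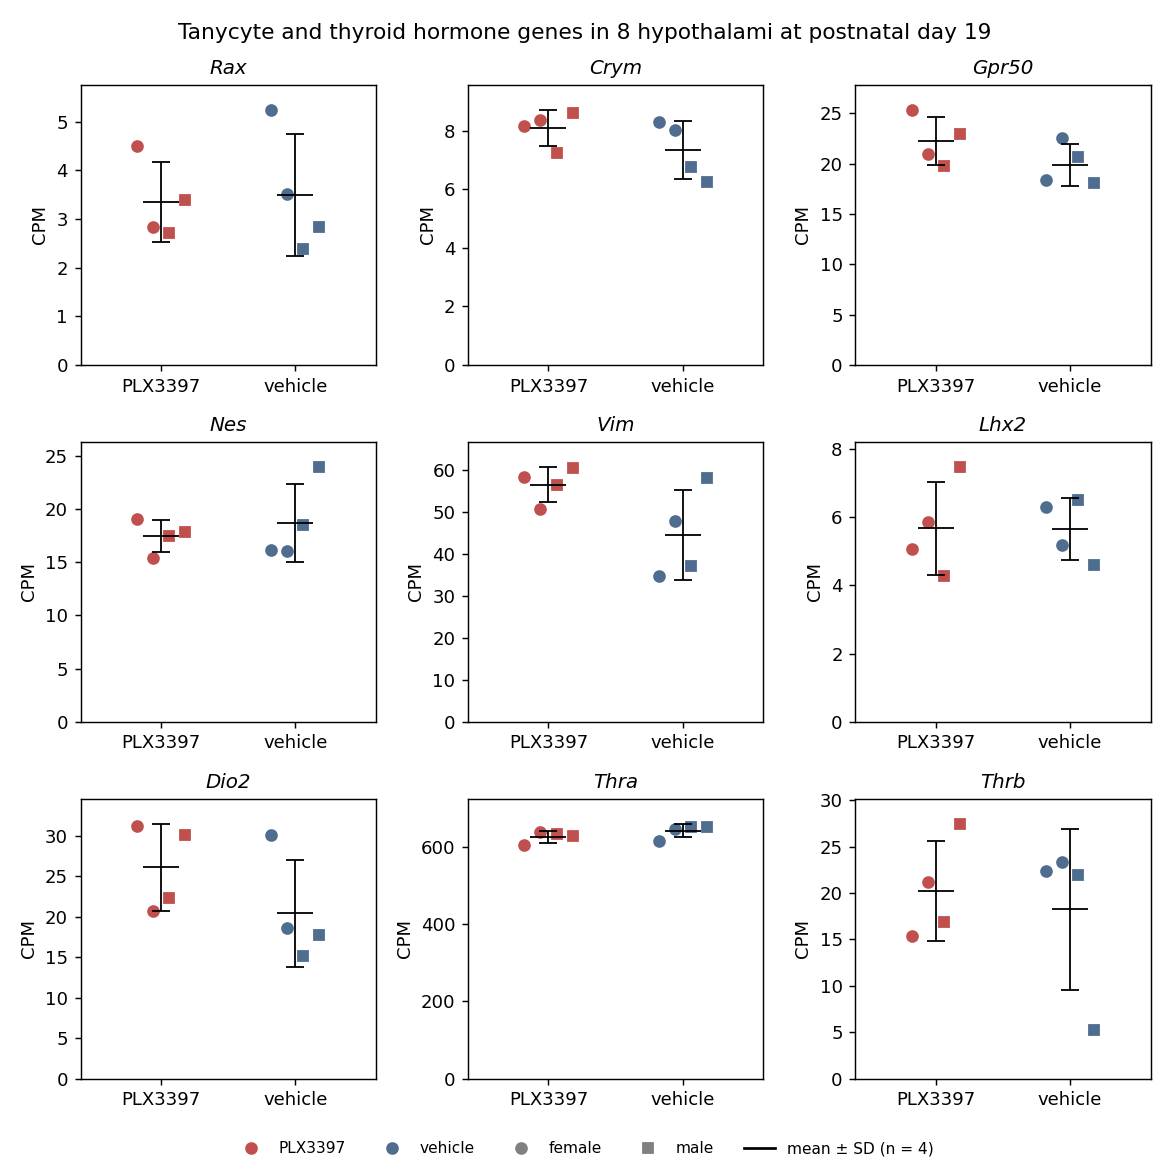
CPM (y axis, library sizes scaled by TMM) of each of the 9 genes, 1 panel a gene with its own axis from 0, in 4 PLX3397 and 4 vehicle hypothalami. Points are libraries, with a separate marker for females and males, and bars are the group mean and SD. The groups overlap in all 9 panels, and the vehicle M2 library stands alone at 5.25 CPM for Thrb.

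The libraries held 55900335 to 67487391 counts in PLX3397 and 54115300 to 60001808 counts in vehicle, so that 3 counts stand for 0.0445 to 0.0554 CPM. Libraries are named by sex and number within their group, F1, F2, M1 and M2. Csf1r, the receptor that PLX3397 inhibits and a microglial transcript, averaged 18.1-fold lower in PLX3397 (log2 fold change -4.18 ± 0.43 SE, edgeR adjusted p = 0.00526). Vehicle F1 stood apart in pituitary transcripts, with 3080 CPM summed over 8 pituitary markers against at most 39.3 CPM in the other vehicle libraries and 32.7 to 50.2 CPM in PLX3397 libraries. Of 10 hypothalamic neuron markers all passed the filter, with 648 to 1033 CPM in sum in PLX3397 and 810.4 to 1664 CPM in vehicle (at most 1010.0 CPM without vehicle F1). Of other brain regions, 2 of 6 cortical, 3 of 4 thalamic and 5 of 5 striatal markers passed the filter. By edgeR 1 thalamic marker fell, where 1.83% of all tested genes were called lower, and no cortical or striatal marker was called.

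Of the tanycyte genes, the transcription factors were the least abundant. Rax, the retina and anterior neural fold homeobox factor that marks tanycytes, had the lowest level per transcript length of the 9, with a mean deposited FPKM of 0.511 over the 8 libraries, just above the filter of 0.5. Lhx2, a LIM-homeodomain factor of developing tanycytes, had a mean of 1.12 FPKM.

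Rax (chromosome 18, 65928277 to 65939787, minus strand, GRCm38) measured 4.51, 2.83, 2.71 and 3.38 CPM in PLX3397 libraries F1, F2, M1 and M2, against 5.23, 3.51, 2.38 and 2.84 CPM in vehicle libraries F1, F2, M1 and M2. Its highest library in either group was F1, and the groups overlapped along nearly their whole range. The log2 fold change of PLX3397 over vehicle was -0.02 ± 0.23 (SE; 95% interval -0.55 to 0.51; edgeR adjusted p = 0.979). Without vehicle F1 the estimate was 0.16, and without PLX3397 M2 it was -0.13, so its direction is not fixed by these libraries.

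Lhx2 (chromosome 2, 38339281 to 38369733, plus strand) measured 5.06, 5.86, 4.28 and 7.45 CPM in the PLX3397 libraries, against 6.30, 5.19, 6.50 and 4.59 CPM in the vehicle libraries. Males gave both the lowest and the highest value under PLX3397, and the means were nearly equal, 5.66 ± 1.36 CPM in PLX3397 and 5.64 ± 0.912 CPM in vehicle (SD, n = 4 each). The log2 fold change was 0.00 ± 0.21 (SE; 95% interval -0.48 to 0.48; edgeR adjusted p = 0.995), and it ran between -0.19 without PLX3397 M2 and 0.13 without PLX3397 M1.

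Gpr50, an orphan receptor related to the melatonin receptors and a tanycyte marker in rodents, and Crym, which makes the T3-binding protein mu-crystallin, both had small positive estimates. Gpr50 (chromosome X, 71663667 to 71669257, plus strand) measured 25.3, 21.0, 19.8 and 22.9 CPM in PLX3397 libraries, against 18.4, 22.5, 20.6 and 18.1 CPM in vehicle libraries. PLX3397 F1 and M2 lay above every vehicle library, while PLX3397 F2 and M1 lay among them. Its log2 fold change was 0.16 ± 0.10 (SE; 95% interval -0.08 to 0.40; edgeR adjusted p = 0.50). It was 0.10 without PLX3397 F1, 0.10 without vehicle F1 and 0.04 with both vehicle F1 and PLX3397 M2 left out.

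Crym (chromosome 7, 120186380 to 120202111, minus strand) measured 8.15, 8.36, 7.22 and 8.60 CPM in PLX3397 libraries, against 8.31, 8.03, 6.76 and 6.24 CPM in vehicle libraries. Females of both groups lay close together, and the vehicle males were the lowest of all. For Crym the estimate was 0.15 ± 0.10 (SE; 95% interval -0.10 to 0.39; edgeR adjusted p = 0.543), against 0.07 without PLX3397 M2 and 0.10 without vehicle M2. Of the 36 pairs among the 9 genes, Crym and Gpr50 had the smallest root mean square difference of centred log2(CPM + 0.5) values, 0.14. The measure is small for any genes that vary little. Crym and Gpr50 were both at 0.17 from Thra, the most even of the 9, so the value does not show that their profiles are alike.

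The intermediate filament genes differed from each other in their estimates. Nes, which encodes nestin, a filament of neural stem cells and of tanycytes that blood vessel cells also make, measured 19.03, 15.4, 17.4 and 17.8 CPM in PLX3397 libraries, against 16.2, 16.0, 18.5 and 23.9 CPM in vehicle libraries. Vehicle M2 was the highest of all 8, and the other 7 lay within 15.4 to 19.03 CPM. For Nes (chromosome 3, 87971078 to 87980451, plus strand) the log2 fold change was -0.09 ± 0.12 (SE; 95% interval -0.37 to 0.20; edgeR adjusted p = 0.788), against 0.03 without vehicle M2 and -0.19 without PLX3397 F1. Vehicle M2 also had the highest sum of the endothelial markers (226 CPM, against 199 to 214 CPM in PLX3397 and 184 to 218 CPM in the other vehicle libraries). Its sum of the pericyte and smooth muscle markers was the highest too (270.0 CPM, against 211 to 251 CPM in PLX3397 and 209.5 to 269 CPM in the other vehicle libraries). This height was not particular to vessel cells. Vehicle M2 was also highest in the sums of astrocyte, ciliated ependymal, microglial, oligodendrocyte precursor and oligodendrocyte markers, though not of neuron or meningeal fibroblast markers. The part of any of these cells in the Nes level of vehicle M2 was not tested.

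Vim, which encodes vimentin, a filament of tanycytes, immature astrocytes, blood vessel cells and fibroblasts, came nearest to the threshold by unadjusted p. It measured 58.4, 50.7, 56.5 and 60.4 CPM in PLX3397 libraries, against 34.8, 47.9, 37.0 and 58.0 CPM in vehicle libraries. All 4 PLX3397 libraries lay above 3 of the vehicle libraries, and vehicle M2 lay among the PLX3397 values. The mean was 56.5 ± 4.15 CPM in PLX3397 and 44.4 ± 10.7 CPM in vehicle (SD, n = 4 each), and the vehicle libraries spread more widely, with a coefficient of variation of 7.34% in PLX3397 and 24.1% in vehicle. The log2 fold change was 0.35 ± 0.16 (SE; 95% interval -0.02 to 0.71), a ratio of 1.27 with an edgeR p of 0.0585 before and 0.329 after adjustment. It was positive under each of 19 other settings, between 0.22 and 0.50, with the highest estimate when vehicle M2 was left out, and its smallest adjusted p among them was 0.192.

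Cells other than tanycytes also make vimentin, and their marker genes were summed. Of 8 meningeal fibroblast markers 5 had positive and 3 negative estimates, with a median of 0.46. By edgeR 2 rose (Slc6a13 and Aldh1a2) and by DESeq2 5 rose. Of all tested genes edgeR called 0.308% higher, and DESeq2 called 2.02% higher and 4.47% lower. The sum of all 8 fibroblast markers was 360 to 514 CPM in PLX3397, against 261 to 371 CPM in vehicle. Astrocyte markers summed to 2942 to 3053 CPM in PLX3397 and 2726 to 3306 CPM in vehicle, with 0 of 8 called by edgeR (1 at an unadjusted p under 0.05; DESeq2 called 1, lower in PLX3397). Of 8 endothelial markers 4 had positive and 4 negative estimates, with a median of -0.09. By edgeR 1 of them rose (Flt1, log2 fold change 0.25), by DESeq2 2 rose, and the sum was 199 to 214 CPM in PLX3397 and 184 to 226 CPM in vehicle. The part of these cells in the Vim values was not tested.

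Dio2, which encodes type 2 deiodinase, had the largest positive estimate of the 9 genes and did not pass the test. It measured 31.3, 20.7, 22.3 and 30.1 CPM in PLX3397 libraries, against 30.1, 18.7, 15.1 and 17.8 CPM in vehicle libraries. Vehicle F1 was as high as the highest PLX3397 libraries, and the other 3 vehicle libraries lay below all 4 PLX3397 libraries. The mean was 26.1 ± 5.36 CPM in PLX3397 and 20.4 ± 6.63 CPM in vehicle (SD, n = 4 each). Dio2 had a log2 fold change of 0.38 ± 0.22 (SE; 95% interval -0.14 to 0.90), a ratio of 1.30 with an edgeR p of 0.129 before and 0.464 after adjustment. Leaving out vehicle F1 gave 0.60, the highest of 19 other settings, and the lowest was 0.23, without PLX3397 M2. The interval reaches from 0.908-fold to 1.87-fold, so these 8 libraries leave a difference of either size within their error.

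Dio2 lies on chromosome 12, 90724552 to 90738438 on the minus strand, with 1 annotated transcript. Cyclic AMP is a known inducer of Dio2, and the bases around its start are printed because they hold the letters of a cAMP response element. The highest and lowest libraries of Dio2 were 2.07-fold apart. The window runs from 250 bases before to 50 after the RefSeq start (chr12:90738989-90739288, GRCm38.p6, minus strand), and that start lies 600 bases upstream of the start in the GENCODE annotation. Capitals mark a cAMP response element, TGACGTCA, whose first base is at position -95, and a TATAAA at position -30, both counted from the start.
Dio2 start window: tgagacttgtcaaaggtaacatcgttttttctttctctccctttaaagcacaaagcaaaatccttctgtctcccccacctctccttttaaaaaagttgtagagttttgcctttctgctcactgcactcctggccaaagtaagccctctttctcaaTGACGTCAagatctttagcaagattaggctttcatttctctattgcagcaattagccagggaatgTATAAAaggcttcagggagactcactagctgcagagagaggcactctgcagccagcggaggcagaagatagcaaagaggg
Both strands were searched for the cAMP response element, for TATAAA, for the nuclear receptor half-site AGGTCA and for its direct repeat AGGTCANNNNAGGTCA, which contains that half-site. Of all 32851 RefSeq start windows of the same length, 1.79% hold TGACGTCA, 13.6% hold TATAAA, 16.3% hold AGGTCA and 0.0152% hold the direct repeat. A match describes the letters only. Start windows were looked at for 6 of the 9 genes, 8 windows in all. Dio2 holds the only TGACGTCA among these windows, and none of them holds the direct repeat. The remaining members are not covered by this comparison, and it does not say what their start windows hold.

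The effect on Dio2 was also estimated in each sex. In males Dio2 measured 22.3 to 30.1 CPM in PLX3397 and 15.1 to 17.8 CPM in vehicle, with only 2 libraries each. In females it measured 20.7 to 31.3 CPM in PLX3397 and 18.7 to 30.1 CPM in vehicle. Its estimate was 0.09 ± 0.29 in females and 0.67 ± 0.30 in males (SE), and the female minus male difference was -0.58 ± 0.42 (SE; edgeR adjusted p = 0.868), so the sexes were not shown to differ.

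Thra was by far the most abundant of the 9 genes, and the most even, with 1.08-fold between its highest and lowest library. Thra encodes TRα (chromosome 11, 98740638 to 98769006, plus strand) and had a mean deposited FPKM of 120.3 over the 8 libraries. It measured 604, 638, 632 and 627 CPM in PLX3397 libraries, against 615, 646, 651 and 652 CPM in vehicle libraries. Both F1 libraries were the lowest of their group, and the ranges overlapped. Thra had a log2 fold change of -0.04 ± 0.03 (SE; 95% interval -0.11 to 0.03; edgeR adjusted p = 0.592), which places the ratio between 0.929-fold and 1.02-fold. The count for Thra pools the hormone-binding receptor and a splice form that does not bind hormone. At its 3′ end it overlaps Nr1d1, which encodes the clock repressor REV-ERBα, over 1075 bases on the opposite strand. The table itself ends Thra at 98765111, before that overlap. Nr1d1 averaged 73.8 CPM in PLX3397 and 79.1 CPM in vehicle (edgeR adjusted p = 0.583), and no source used here says if strand was kept, so reads from the overlap, if counted, cannot be told apart.

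Thrb, which encodes TRβ, the receptor of hormone feedback in the hypothalamus and pituitary, spread most between libraries. Thrb (chromosome 14, 17660261 to 18038090, plus strand) measured 15.4, 21.2, 16.8 and 27.4 CPM in PLX3397 libraries, against 22.4, 23.3, 22.0 and 5.25 CPM in vehicle libraries. Of all 8, vehicle M2 was the lowest and PLX3397 M2 the highest, 5.22-fold apart, and the other 3 vehicle libraries lay within 22.0 to 23.3 CPM. The log2 fold change was 0.19 ± 0.44 (SE; 95% interval -0.84 to 1.22; edgeR adjusted p = 0.879). Its direction turned with 1 library: it was -0.19 without vehicle M2 (adjusted p = 0.739) and -0.06 without PLX3397 M2, and it reached 0.50 without vehicle M1. The Thrb value of vehicle M2 was 2.93-fold below the lowest of the other 7 libraries. Among 12729 tested genes with a mean of at least 5 CPM, 26 lay more than 2-fold below all other libraries in vehicle M2, against 16 to 33 in each other library.

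The 6 coding of 7 annotated Thrb transcripts are pooled in its count. Its RefSeq transcripts start at separate places, and both start windows are printed because they show how unlike these starts are in base composition. In the upstream window (chr14:17660710-17661009, GRCm38.p6, plus strand) 72.7% of the bases are G or C, and the capitals mark an AGGTCA half-site at position -184.
Thrb upstream start window: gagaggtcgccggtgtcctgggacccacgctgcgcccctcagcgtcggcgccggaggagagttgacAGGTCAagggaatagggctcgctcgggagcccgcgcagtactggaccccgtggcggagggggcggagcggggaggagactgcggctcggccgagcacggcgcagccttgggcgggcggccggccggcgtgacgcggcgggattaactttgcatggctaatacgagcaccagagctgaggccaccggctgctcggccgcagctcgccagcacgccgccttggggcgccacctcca
In the downstream window (chr14:17981394-17981693, plus strand) 46.0% of the bases are G or C, against a median of 52.7% over all windows, and the capitals mark a TATAAA at position -167.
Thrb downstream start window: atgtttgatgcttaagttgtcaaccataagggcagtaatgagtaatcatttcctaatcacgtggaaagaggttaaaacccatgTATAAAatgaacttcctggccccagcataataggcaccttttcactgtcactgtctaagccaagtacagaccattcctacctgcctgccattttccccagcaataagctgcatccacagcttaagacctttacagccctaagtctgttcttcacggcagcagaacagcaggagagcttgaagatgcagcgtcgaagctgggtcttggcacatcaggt
The counts do not say which start the Thrb reads of a library came from.

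**Figure D2:**
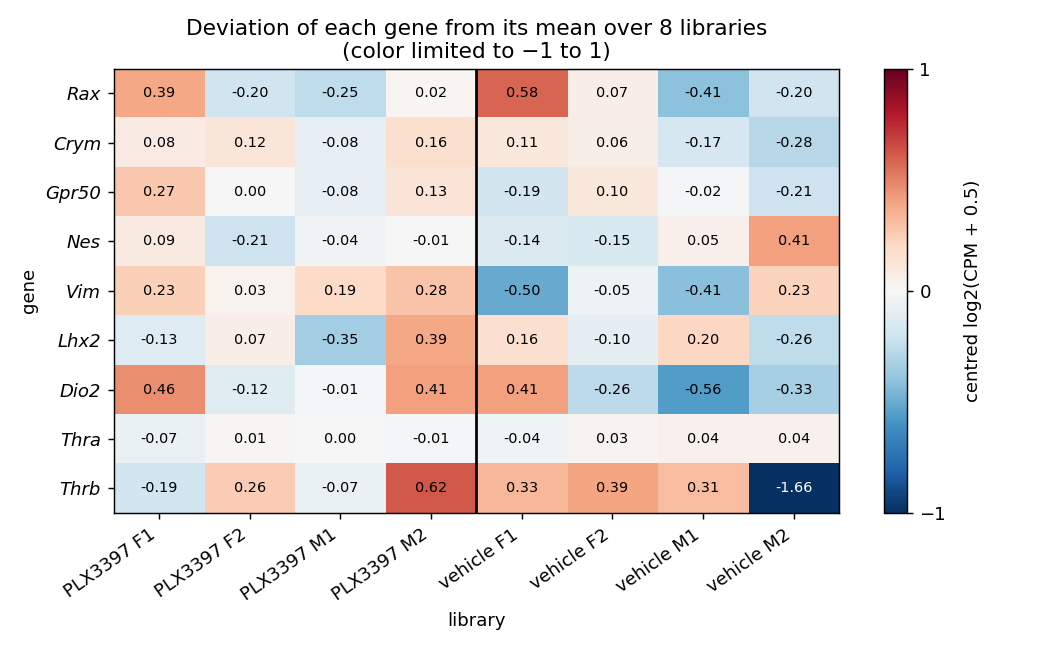
Each of the 9 genes (rows) in each library (columns, PLX3397 left of vehicle), as log2(CPM + 0.5) minus the gene's mean over the 8 libraries; color and printed number give the same value. Thrb in vehicle M2 is the lowest cell, and Thra is near 0 in every library.

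By length-normalized level, the order of the 9 genes by mean deposited FPKM was Thra at 120.3, Vim at 9.32, Gpr50 at 6.02, Dio2 at 3.51, Nes at 2.46, Thrb at 2.27, Crym at 1.99, Lhx2 at 1.12 and Rax at 0.511. Thra lay far above all others in every library, at 113.5 to 123.7 FPKM. The ranges of Vim and Gpr50 over libraries overlapped, but Vim lay above Gpr50 in every library. Dio2 and Nes, Nes and Thrb, and Thrb and Crym changed order between libraries, so the order within these pairs is not set by these values. The ranges of Thra and Vim, of Gpr50 and Dio2, of Crym and Lhx2, and of Lhx2 and Rax did not overlap. The order is a description of whole hypothalamus, in which receptors are made by many cell types. Nes and Vim are also made by cells other than tanycytes, so the levels are not those of tanycytes alone.

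For the 3 genes with the widest ranges over libraries, the genes with the most alike profiles were looked for among 140 listed pathway and marker genes. Thrb was nearest to Adm, at a root mean square difference of 0.50 log2 units, against a spread of 0.67 of Thrb around its own mean. Dio2 was nearest to Col23a1 and Trhr, at 0.26 and 0.26 against its own 0.36. Rax was nearest to Drd2 and Fgf10, at 0.15 and 0.16 against its own 0.32. These likenesses rest on 8 libraries that share their groups and depth.

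Sex made no called difference in the 9 genes either. Of the 16894 tested genes 10 were called between female and male libraries (0.0592%), and 0 of the 9 genes were among them (at an unadjusted p under 0.05, 0 by edgeR and 1 by DESeq2, against 4.99% and 5.50% of all tested genes, and 0 after DESeq2's adjustment). The largest estimate was that of Rax, which averaged 4.02 ± 1.06 CPM in females and 2.83 ± 0.418 CPM in males (SD, n = 4 each; log2 fold change of female over male 0.51 ± 0.23 SE, edgeR adjusted p = 0.933). Crym averaged 8.21 ± 0.154 CPM in females and 7.21 ± 1.02 CPM in males, with an edgeR adjusted p of 0.933. Within each sex, PLX3397 against vehicle called 61 genes in females (0.361%) and 260 in males (1.54%), and again 0 of the 9 genes in either (0 in either at an unadjusted p under 0.05, against 9.56% of all tested genes in females and 13.6% in males). The female minus male difference of the effect was called for 13 genes (0.077%) and for 0 of the 9 (0 at an unadjusted p under 0.05, against 6.01% of all tested genes), with adjusted p-values of 0.849 to 0.987. For Thrb that difference was -1.02 ± 0.85 (SE), and it contains vehicle M2.

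**Figure D3:**
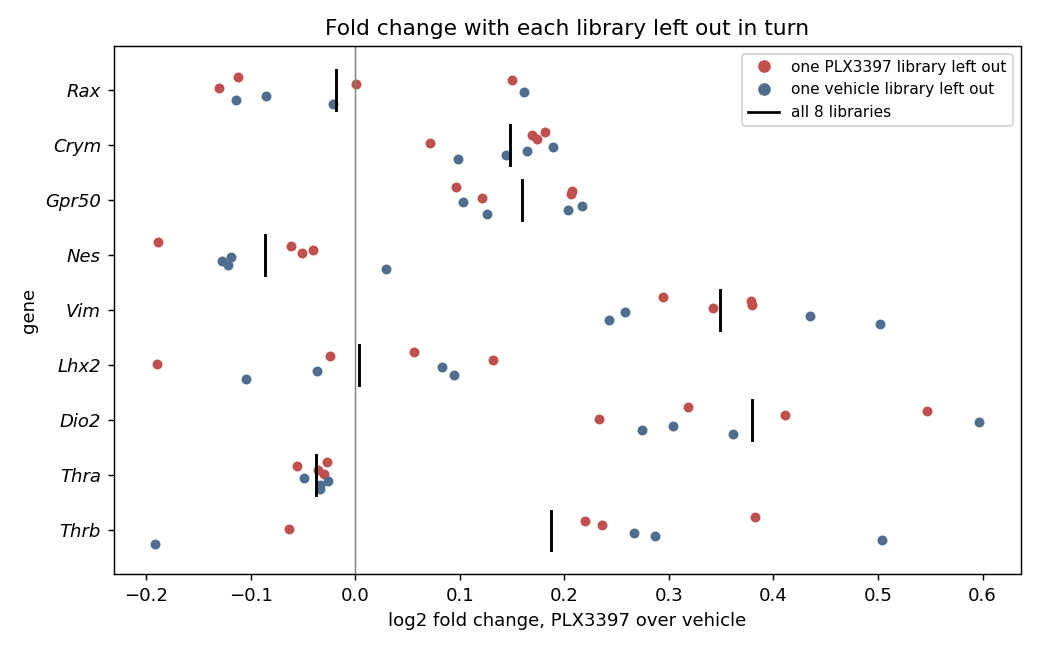
Log2 fold change of PLX3397 over vehicle (x axis, edgeR) of each of the 9 genes (y axis) with all 8 libraries and with each library left out in turn. Crym, Gpr50, Vim, Dio2 and Thra keep their direction in all 8 of these fits, while Rax, Nes, Lhx2 and Thrb cross 0.

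Other genes that mark tanycytes were not called either. Of 12 further markers all were tested and 0 were called (1 at an unadjusted p under 0.05 by edgeR, 3 by DESeq2, which also called 0 after adjustment). Of all tested genes edgeR called 2.14% (16.2% at an unadjusted p under 0.05) and DESeq2 6.49% (17.1%). A count of 0 in a list this short therefore says little about its genes. Estimates were positive in 6 and negative in 6, with a median of -0.03. The smallest p-values belonged to Necab2, which encodes a calcium-binding protein, at 0.17 ± 0.06 (edgeR adjusted p = 0.240), to Slc17a8, which encodes a vesicular glutamate transporter, at -0.32 ± 0.14 (adjusted p = 0.310), and to Six6, a homeobox factor of the ventral forebrain, at -0.38 ± 0.17 (adjusted p = 0.321). Six6 measured 8.25, 10.1, 10.8 and 13.1 CPM in PLX3397 libraries, against 16.7, 13.3, 11.7 and 13.1 CPM in vehicle libraries, and the groups overlapped. Ciliated ependymal cells, the neighbours of tanycytes in the ventricle wall, had 0 of 7 markers called (0 at an unadjusted p under 0.05 by edgeR and by DESeq2). All 7 estimates were negative, with a median of -0.31, and the sum was 40.3 to 96.0 CPM in sum in PLX3397 and 68.4 to 98.7 CPM in vehicle.

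No transporter that brings thyroid hormone into cells was called, and most estimates were near 0. Of 6 transporter and carrier genes 5 were tested and 0 called (0 at an unadjusted p under 0.05 by edgeR and by DESeq2), with a median log2 fold change of -0.00. The share of all tested genes that edgeR called was 2.14%, or 16.2% at an unadjusted p under 0.05. Slco1c1, which encodes OATP1C1, measured 36.1, 34.8, 36.2 and 28.8 CPM in PLX3397 libraries, against 32.6, 33.6, 29.1 and 37.2 CPM in vehicle libraries. The groups overlapped, and its estimate was 0.03 ± 0.10 (SE; 95% interval -0.20 to 0.27). The amino acid transporters Slc7a5 and Slc7a8 had 0.01 ± 0.07 and -0.00 ± 0.04, and Ttr, the plasma and cerebrospinal fluid carrier, had -0.05 ± 0.35. Slc16a10, which encodes MCT10, lay below the filter at a mean of 0.484 FPKM.

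Neither of the other deiodinases reached the filter. Dio3, the inactivating type 3 enzyme, had 35, 24, 19 and 39 counts in PLX3397 libraries, against 53, 39, 66 and 50 counts in vehicle libraries. That is 0.480 ± 0.171 CPM in PLX3397 and 0.905 ± 0.231 CPM in vehicle (SD, n = 4 each), and PLX3397 M2 at 0.702 CPM overlapped vehicle F2 at 0.667 CPM. In the fit with no filter the Dio3 log2 fold change was -0.89, with an edgeR p of 0.0292 before and 0.403 after adjustment over 32782 genes. Dio1, the type 1 enzyme of liver and kidney, had 0 counts in all PLX3397 libraries and 0 to 0.119 CPM in vehicle libraries.

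The partners through which the receptors act were not called. Of 12 retinoid X receptors and co-regulators all were tested and 0 were called by edgeR (1 at an unadjusted p under 0.05), with 9 positive estimates and a median of 0.03. The shares of all tested genes were 2.14% called and 16.2% at an unadjusted p under 0.05. Rxrg, the retinoid X receptor γ, measured 23.1, 24.2, 21.2 and 23.5 CPM in PLX3397 libraries, against 21.3, 20.8, 18.6 and 18.1 CPM in vehicle libraries. The groups overlapped by PLX3397 M1 and vehicle F1 only. Its estimate was 0.23 ± 0.06 (edgeR adjusted p = 0.128). DESeq2, which called 2.02% of all tested genes higher, called it at an adjusted p of 0.0388. Rxrb, another retinoid X receptor, had -0.10 ± 0.07 (edgeR adjusted p = 0.508).

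Of 7 genes known to respond to thyroid hormone in rodent brain, 1 fell and 0 rose by edgeR, which called 1.83% of all tested genes lower, and the median was -0.28. At an unadjusted p under 0.05 edgeR gave 3 of the 7, against 16.2% of all tested genes. DESeq2 called 3 of the 7 lower, against 4.47% of all tested genes. The gene that fell was Mbp, which encodes myelin basic protein. It measured 649, 438, 524 and 353 CPM in PLX3397 libraries, against 906, 985, 1271 and 1374 CPM in vehicle libraries. The groups did not overlap, as for 11.2% of all tested genes. Its log2 fold change was -1.20 ± 0.21 (SE; edgeR adjusted p = 0.0387). The call held in 1 of the 8 fits that left out a library, that without PLX3397 F1, and the adjusted p ran from 0.0124 to 0.124 over these fits.

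Mbp is a marker of oligodendrocytes as well. The counts of cell markers that follow are edgeR calls, where 1.83% of all tested genes were called lower. Of 8 oligodendrocyte markers 4 fell, with 2111 to 4802 CPM in sum in PLX3397 and 6236 to 9480 CPM in vehicle. Of 8 precursor markers 6 fell, with 316 to 397 CPM in sum in PLX3397 and 797 to 1054 CPM in vehicle. Microglial markers, of which 8 of 10 fell, summed to 24.7 to 51.1 CPM in PLX3397 and 312 to 326 CPM in vehicle. What part these cells have in the Mbp values was not tested.

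The other responsive genes were not called by edgeR. Reln, which encodes the secreted protein reelin, measured 49.3, 43.5, 49.2 and 49.3 CPM in PLX3397 libraries, against 53.5, 57.7, 80.5 and 59.7 CPM in vehicle libraries. The groups did not overlap, as for 11.2% of all tested genes, and the estimate was -0.39 ± 0.11 (edgeR adjusted p = 0.132, DESeq2 adjusted p = 0.0173). Hr, a co-repressor and direct T3 target, had -0.28 ± 0.16 (edgeR adjusted p = 0.439). Klf9, a T3-induced transcription factor, measured 109, 96.7, 106 and 116 CPM in PLX3397 libraries, against 114, 37.9, 99.1 and 31.6 CPM in vehicle libraries. Vehicle F2 and M2 were far below all other libraries, and the estimate of Klf9 was 0.60 ± 0.42 (edgeR adjusted p = 0.538). Nrgn and Camk4 had estimates of 0.19 ± 0.09 and 0.07 ± 0.10.

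**Figure D4:**
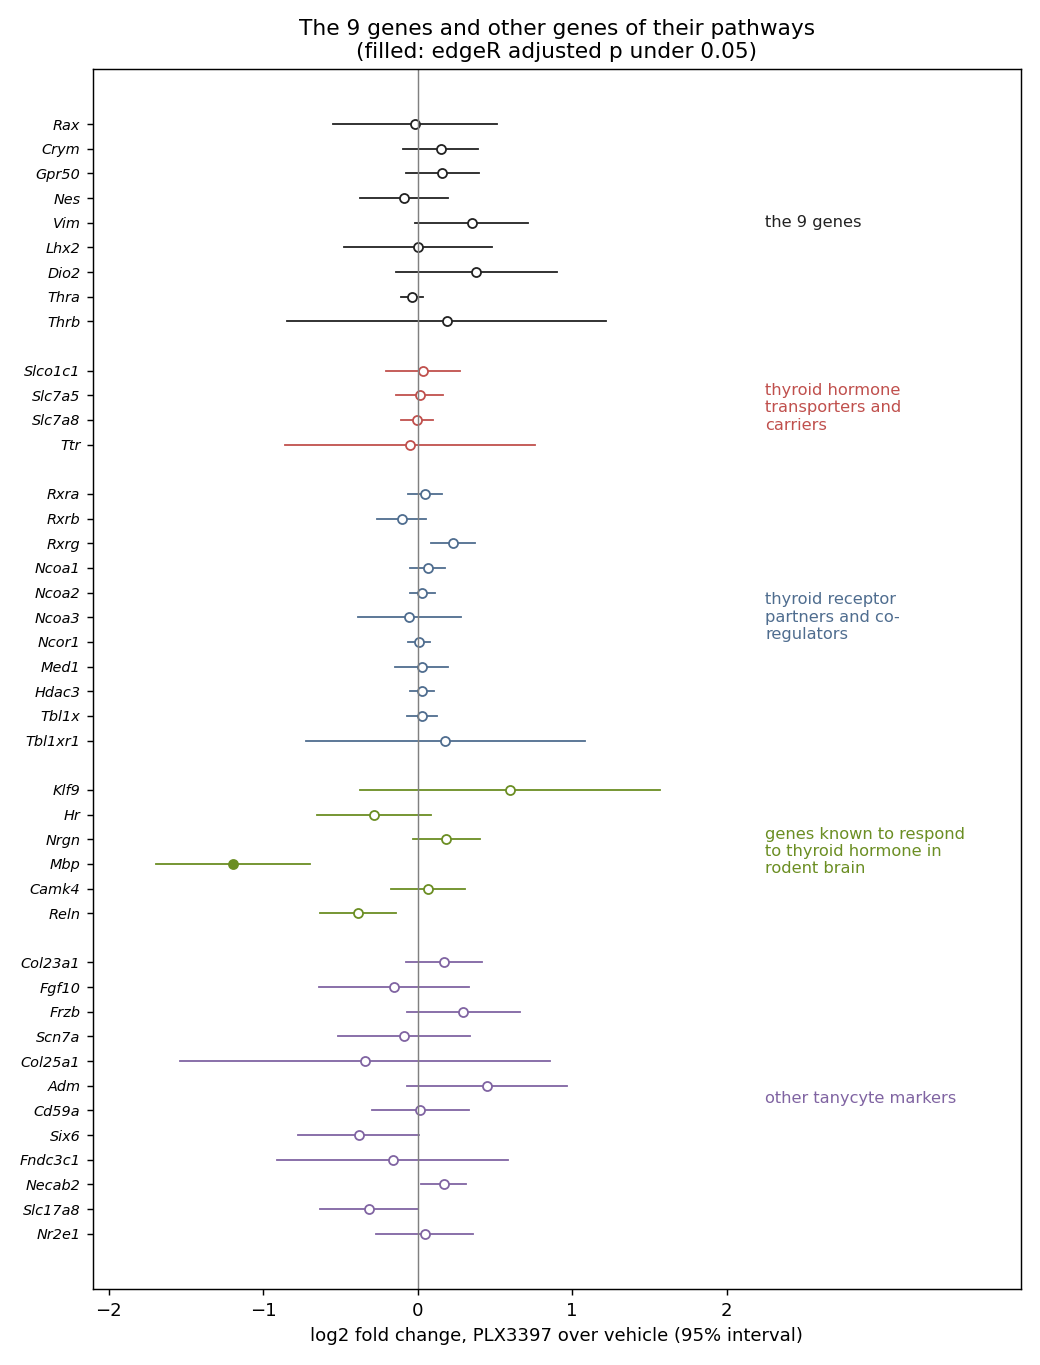
Log2 fold change of PLX3397 over vehicle (x axis, edgeR) for the 9 genes and, below them, tested genes of 4 pathway lists (y axis, colored by list). Points are estimates, filled where the adjusted p is under 0.05, and lines are 95% intervals. All 9 intervals of the upper block include 0, that of Thrb is the widest of them at -0.84 to 1.22, and Mbp is the 1 filled point.

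Of 6 genes of the hypothalamus, pituitary and thyroid axis 5 were tested and 0 were called by edgeR (1 at an unadjusted p under 0.05), with a median of -0.27. DESeq2 called 1. The shares of all tested genes by edgeR were 2.14% called and 16.2% at an unadjusted p under 0.05. The one that DESeq2 called was Trhde, the ectoenzyme that degrades thyrotropin-releasing hormone and that tanycytes of rodents carry. Trhde measured 17.8, 17.0, 18.9 and 18.3 CPM in PLX3397 libraries, against 20.6, 20.9, 23.8 and 21.4 CPM in vehicle libraries. Every PLX3397 library lay below every vehicle library, where the groups did not overlap for 11.2% of all tested genes. DESeq2 called 4.47% of all tested genes lower. Trhde had a log2 fold change of -0.27 ± 0.06 (SE; 95% interval -0.40 to -0.13), an edgeR p of 0.00214 before and 0.0739 after adjustment, against a DESeq2 adjusted p of 0.00562. Over the 8 fits that left out a library the estimate ran from -0.29 to -0.23 and the adjusted p from 0.115 to 0.190.

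Trh, which encodes the releasing hormone, had an estimate of -0.20 ± 0.19 (edgeR adjusted p = 0.664), and Trhr, its receptor, had 0.19 ± 0.09 (adjusted p = 0.353). Tshr, the thyrotropin receptor, lay below the filter at 3.21 ± 0.117 CPM in PLX3397 and 2.78 ± 0.261 CPM in vehicle (SD, n = 4 each). Its groups did not overlap, as for 11.2% of all tested genes, and Tshr itself was not among the tested genes. The thyrotropin subunits rest on vehicle F1, the library with pituitary transcripts. Tshb was at 1.26 to 2.40 CPM in PLX3397 libraries, and at 31.0 CPM in vehicle F1 against 1.82 to 3.39 CPM in the other vehicle libraries, with an estimate of -1.77 ± 0.92 with all libraries (edgeR adjusted p = 0.403) and -0.50 without vehicle F1. Cga was at 7.14 to 11.9 CPM in PLX3397 libraries and at 182 CPM in vehicle F1, against 0.958, 1.20 and 7.69 CPM in vehicle F2, M1 and M2. Its estimate of -1.32 ± 1.82 (edgeR adjusted p = 0.782) became 1.73 without vehicle F1.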

How the data were processed

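Per the file headers, the deposited table gives for each library and gene the authors' whole-number counts and, beside them, the authors' FPKM, counts scaled to gene length and library size. Tools listed in the submitters' processing notes, with no role, are HISAT2, StringTie, limma, DESeq2 and bcl2fastq 2.0. No source used here gives the counter, annotation release or strand setting, and transcripts of a gene are pooled.

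The counts were tested with edgeR 4.0.16 in R 4.3.3 (quasi-likelihood F-test, TMM scaling, sex and treatment as terms) over 16894 genes whose mean FPKM reached 0.5, with Benjamini-Hochberg adjustment over all of them. The standard error is the log2 fold change over the root of F. Effects within sexes came from a model of 4 groups. CPM used TMM-scaled totals, and values of different genes were compared on FPKM only. Alternatives used DESeq2 1.42.0 and limma 3.58.1 (log2 of FPKM plus 0.5 or 0.1). The calculation was tested on simulated data, with 200 genes set to a log2 fold change of size 1. It called 61% of them and made 8 false calls, and smaller changes were not simulated. Totals were 54115300 to 67487391 counts, and limits from 3 counts cover counting error only. No library pair agreed within sampling noise.

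Genes named are the 9 members, the called genes of each pathway list with up to 3 next by p, all of lists of up to 6, genes overlapping a member and the 2 nearest profiles of 3 members. Called genes of marker lists are named where a result turns on them. Hr, Klf9 and Camk4 are outside this rule and were named after their values were seen, to add to their list. A few listed genes are not reported here. The members and lists were chosen with earlier results of these data known. Coordinates come from GENCODE vM21 (GRCm38), in which 6 of 9 members have the table's span and 9 of 9 its transcripts, and start windows from RefSeq (GRCm38.p6). Besides Nr1d1, the genes overlapping members are untested noncoding or antisense genes (Raxos1, Gm27197, Gm13584, Gm26512, Gm48320, Gm24140 and Gm48321). Other marker lists gave, as summed CPM in PLX3397 and in vehicle, 3468 to 3630 and 3305 to 3542 for neurons, 34.5 to 40.7 and 31.8 to 36.1 for choroid plexus, 33.8 to 38.1 and 36.7 to 50.6 for thalamus, 104 to 110.2 and 98.5 to 126 for striatum, and 8.50 to 12.6 and 10.7 to 14.4 for cortex.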

Additional observations from a re-analysis of the deposited data

Results flagged for a closer look

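In 9 of 108 groups of 4 libraries screened gene by gene, 1 library lay farther from the rest than Dixon's 95% limit; chance alone gives about 1 in 20. Among the 9 genes, Thrb in vehicle M2 was at 5.25 CPM, below the other vehicle libraries at 22.0 to 23.3 CPM. Thra in vehicle F1 was at 615 CPM, below the other vehicle libraries at 646 to 652 CPM. In the pathway lists, vehicle F1 was high in Tshb at 31.0 CPM, in Cga at 182 CPM, in Fgf10 at 9.28 CPM and in Fndc3c1 at 10.3 CPM. PLX3397 M2 was high in Col23a1 at 63.5 CPM and in Cga at 11.9 CPM, and PLX3397 F2 was low in Reln at 43.5 CPM. No treatment effect differed between the sexes beyond the test among the 9 genes.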

How the results depend on the processing

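None of the 9 genes passed the threshold under any of 19 other settings for treatment (18 for Rax, which a minimum mean FPKM of 1 removes). Genes called between PLX3397 and vehicle numbered 362, against 1097 with DESeq2, 123 without vehicle F1 and PLX3397 M2 together, and 138 to 361 with 1 library left out; female against male gave 10, and 52 with DESeq2. The labels do not say if the F and M numbers pair the libraries. Residuals of same-numbered libraries correlated at -0.22, -0.10, -0.18 and -0.25 over 16894 genes. Fitting sex and treatment itself pulls these correlations below 0, so they cannot decide it. With the replicate block 79 genes were called. Directions turned for Rax (0.0624), Lhx2 (-0.144) and Thrb (-0.0191) without vehicle F1 and PLX3397 M2 together, and for Lhx2 with limma (-0.00919 with a pseudocount of 0.5 and -0.0149 with 0.1), at a minimum FPKM of 1 (-0.00342) and under the replicate block (-0.0120). With 1 library left out, treatment estimates ran from -0.13 to 0.16 for Rax, -0.189 to 0.0291 for Nes, -0.19 to 0.13 for Lhx2 and -0.19 to 0.50 for Thrb, and sex estimates from -0.254 to 0.00238 for Vim, -0.15 to 0.18 for Lhx2 and -0.145 to 0.554 for Thrb. The cause was not tested. Median-ratio size factors, also applied to the sex-by-treatment difference (chosen after seeing the data), turned none of the 9 treatment estimates or differences. With 4 libraries a group, the 95% interval of Thrb spans 0.558-fold to 2.33-fold, and Rax rests on 129 to 308 counts a library.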
